A study of Mus musculus with 20 samples.

Results

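RNA levels of the proteasome and immunoproteasome genes were measured in the livers of 20 male mice after 12 weeks on a control diet or on a diet that produces steatohepatitis. The set was taken as every protein-coding gene of the deposited table whose symbol starts with Psma, Psmb, Psmc, Psmd, Psme, Psmf or Psmg followed by a digit, which gave 50 of 38924 genes. Of these, 48 passed the filter on low values and were tested. The other two were Psmb11 and Psmc3ip, whose values are given with the levels. Psmc3ip matched by its symbol alone, since its product is a meiotic recombination factor and no proteasome subunit.

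The proteasome is the main protease of the cytosol and nucleus. Its barrel-shaped core particle is built of outer alpha rings and inner beta rings, and 3 of the beta subunits carry the active sites that cut proteins tagged with ubiquitin. A regulatory particle made of a base with a ring of ATPases and a lid unfolds those proteins and feeds them into the barrel. When cells receive interferon gamma, new barrels take up inducible catalytic subunits, Psmb8 (LMP7), Psmb9 (LMP2) and Psmb10 (MECL-1), in the places of Psmb5, Psmb6 and Psmb7, and the result is called the immunoproteasome. The PA28 ring, made of Psme1 and Psme2, can cap the barrel in place of the regulatory particle. Immunoproteasomes favour cuts that yield peptides suited to class I molecules of the major histocompatibility complex. They are abundant in lymphocytes and antigen-presenting cells, whereas resting hepatocytes hold mostly the constitutive form.

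The 20 livers formed 4 groups of 5, given here by the names in the sample descriptions. NDWT were wild type mice on the control diet, NDKO were TSP-1 Knockout mice on the control diet, HFWT were wild type mice on CDAHFD and HFKO were TSP-1 Knockout mice on CDAHFD. CDAHFD is a high fat diet whose protein is replaced by amino acids. It lacks choline and holds little methionine, and per the study either of these impairs the export of fat from the liver. The strain background of every mouse is labelled C57/BL6, all were male and were bought at 5 weeks of age, and all spent 12 weeks on their diet. TSP-1 is thrombospondin-1, a secreted matrix protein encoded by Thbs1. The knockout was a purchased line and no source used here limits it to a cell type. The sources do not say that the WT and TSP-1 null mice were littermates, so genotype and breeding colony cannot be told apart. The study asked which liver genes changed with the diet, and whether the loss of TSP-1 altered that response.

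Each library held 15641545 to 23276322 fragments assigned to genes, and the 50 genes together took 0.323% to 0.375% of them as group means. Replicate numbers name separate mice and were not taken to pair the libraries. The HFWT replicate 5 library stood apart, with 5.55% of its fragments on the ribosomal rows Gm26924 and Gm23935 against 0.176% to 1.98% in the others, so values that rest on it are also given without it. Hepatocyte markers summed to 29241 FPKM or more in every library. The check of the labels did not show a loss of Thbs1 RNA in the libraries labelled TSP-1 null on either diet. Thbs1 was measured at 0.170, 0.326, 0.268, 0.0580 and 0.165 FPKM in the WT libraries on control diet and at 1.00, 1.5, 0.986, 1.90 and 1.13 in the TSP-1 null ones, so every control diet library labelled TSP-1 null held more Thbs1 RNA than every WT one. On CDAHFD it was 5.77, 6.10, 3.46, 3.91 and 3.86 FPKM in HFWT and 3.30, 3.32, 3.05, 3.14 and 4.40 in HFKO, and these groups overlapped. The genotype comparisons follow the labels as given. The median of all 14524 genes tested stood 0.53 higher on the log2 scale under CDAHFD in WT and 0.50 higher in TSP-1 null, so a change of a proteasome gene is also given after scaling each library by the median of its ratios to the mean library.

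Start regions of the immunoproteasome genes are shown first, because interferon gamma acts on them through sequence elements that can be looked for by letters. Each stretch runs from 250 bases before to 50 bases after the transcription start that RefSeq gives on GRCm38.p6, 5′ to 3′ on the strand of the gene. Capitals mark any match on either strand to the gamma-activated site TTCNNNGAA or to the core of the interferon-stimulated response element, which was searched as GAAA, any 2 bases and GAAA and is bound by Irf1. Psmb5 is shown as the constitutive counterpart of Psmb8.
Psmb8 (chr17:34197945-34198244, + strand): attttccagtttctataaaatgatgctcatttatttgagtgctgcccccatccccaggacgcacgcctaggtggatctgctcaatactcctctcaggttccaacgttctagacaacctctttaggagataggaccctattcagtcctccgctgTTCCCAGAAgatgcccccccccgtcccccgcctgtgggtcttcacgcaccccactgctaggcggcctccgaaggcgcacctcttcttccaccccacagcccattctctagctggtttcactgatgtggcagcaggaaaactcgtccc
Psmb9 (chr17:34187281-34187580, - strand): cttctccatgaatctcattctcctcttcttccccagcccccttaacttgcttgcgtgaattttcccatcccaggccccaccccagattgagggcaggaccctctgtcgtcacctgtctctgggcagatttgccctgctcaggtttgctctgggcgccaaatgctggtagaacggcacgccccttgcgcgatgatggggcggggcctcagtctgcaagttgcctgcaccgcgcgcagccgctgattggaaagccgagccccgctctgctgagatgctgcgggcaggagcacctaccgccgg
Psmb10 (chr8:105938343-105938642, - strand): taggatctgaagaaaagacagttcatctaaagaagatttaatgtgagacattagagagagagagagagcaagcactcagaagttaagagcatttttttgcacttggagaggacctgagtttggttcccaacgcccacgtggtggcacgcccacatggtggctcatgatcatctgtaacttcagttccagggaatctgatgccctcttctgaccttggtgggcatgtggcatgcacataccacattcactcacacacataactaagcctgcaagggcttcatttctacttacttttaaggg
Psme1 (chr14:55578244-55578543, + strand): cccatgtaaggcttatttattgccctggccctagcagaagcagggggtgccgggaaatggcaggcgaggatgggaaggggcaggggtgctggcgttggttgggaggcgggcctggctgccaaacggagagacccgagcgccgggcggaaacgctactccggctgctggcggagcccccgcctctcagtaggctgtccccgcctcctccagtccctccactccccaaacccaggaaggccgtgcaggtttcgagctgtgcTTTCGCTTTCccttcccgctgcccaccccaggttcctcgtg
Psme2 (chr14:55591052-55591351, - strand): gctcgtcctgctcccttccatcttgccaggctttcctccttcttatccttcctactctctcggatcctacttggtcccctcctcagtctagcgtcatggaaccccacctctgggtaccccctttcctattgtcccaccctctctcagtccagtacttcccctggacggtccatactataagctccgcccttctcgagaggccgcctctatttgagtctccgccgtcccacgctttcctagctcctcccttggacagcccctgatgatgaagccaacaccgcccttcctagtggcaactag
Psmb5 (chr14:54617946-54618245, - strand): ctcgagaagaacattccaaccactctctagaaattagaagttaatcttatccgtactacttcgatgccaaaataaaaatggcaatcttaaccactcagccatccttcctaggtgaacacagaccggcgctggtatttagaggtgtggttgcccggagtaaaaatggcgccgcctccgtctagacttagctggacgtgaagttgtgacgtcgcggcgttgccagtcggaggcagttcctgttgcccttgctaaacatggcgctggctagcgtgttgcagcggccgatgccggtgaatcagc

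Among the immunoproteasome and PA28 genes shown, Psmb8 held 1 gamma-activated site, which began 97 bases before the start, and Psme1 held 1 interferon-stimulated response element on the opposite strand, which began 10 bases after the start. The stretches of Psmb9, Psmb10 and Psme2 held neither string, which says only that these letters are not within these windows. RefSeq start regions matched 42 of the 50 genes by symbol, and 3 of the 42 held the gamma-activated site (Psmb8, Psmd2 and Psmg1) against 8.3% of 32851 start regions of the same length. The interferon-stimulated response element occurred in 5 of the 42 (Psmb3, Psmd4, Psmd9, Psme1 and Psmg4) against 3.44% of all. The string TGANNNNGC, part of the antioxidant response element through which Nfe2l1 and Nfe2l2 raise constitutive subunits, occurred in 23 of the 42 against 41.3% of all. It was held by 13 of the 25 constitutive barrel and regulatory particle genes with an entry, and by Psmb8, Psmb9, Psme2 and Psmb5 among those printed. The starts that RefSeq gives for Psmb8, Psmb9 and Psme1 lie 474, 434 and 371 bases from the outer ends of these genes in the deposited table. Other starts may therefore be in use.

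Levels between genes were compared in FPKM, a fragment count divided by transcript length and by library size. The constitutive subunits of the barrel lay well above the detection floor in all groups, from a mean of 28.3 FPKM for Psmb3 to 101.3 for Psmb4 among the beta subunits without an active site in NDWT. The inducible subunits lay lower and kept the same order in each of the 4 group means, with Psmb9 lowest and Psmb10 highest. In NDWT the mean was 5.18 ± 1.62 FPKM for Psmb9, 10.9 ± 2.57 for Psmb8 and 17.3 ± 5.05 for Psmb10 (SD, n = 5). Their constitutive counterparts Psmb6, Psmb5 and Psmb7 stood at 53.7 ± 5.66, 68.0 ± 8.57 and 82.6 ± 3.45 FPKM. Every constitutive value in every library was thus above the inducible value for the same position in the barrel.

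At the low end, Psmb11, the catalytic subunit of the thymic cortex, was at 0 in 19 libraries and at 0.012 FPKM in HFWT replicate 4, where 1 fragment was counted. Psma8, an alpha subunit of the testis, was carried by 2 to 27 fragments a library, with means of 0.257, 0.236, 0.514 and 0.481 FPKM in NDWT, NDKO, HFWT and HFKO. On control diet Psmc3ip was measured at 0.236, 0.264, 0.155, 0.128 and 0.469 FPKM in WT and at 0.0270, 0.0970, 0.0590, 0.0690 and 0.190 in TSP-1 null, and on CDAHFD at 0.736, 0.555, 0.434, 0.607 and 0.446 and at 0.498, 0.316, 0.398, 0.25 and 0.375. Few of its values passed the filter of 0.5 FPKM, so the main fit left it out. At 3 fragments on a transcript of 1 kilobase, the smallest level told apart from none was 0.129 to 0.192 FPKM across libraries. In the regulatory particle Psmc2 was the lowest ATPase at 18.7 FPKM in NDWT and Psmc1 the highest at 83.1, and in the lid the deubiquitinase Psmd14 was lowest at 11.7 and Psmd8 highest at 70.2.

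**Figure D1:**
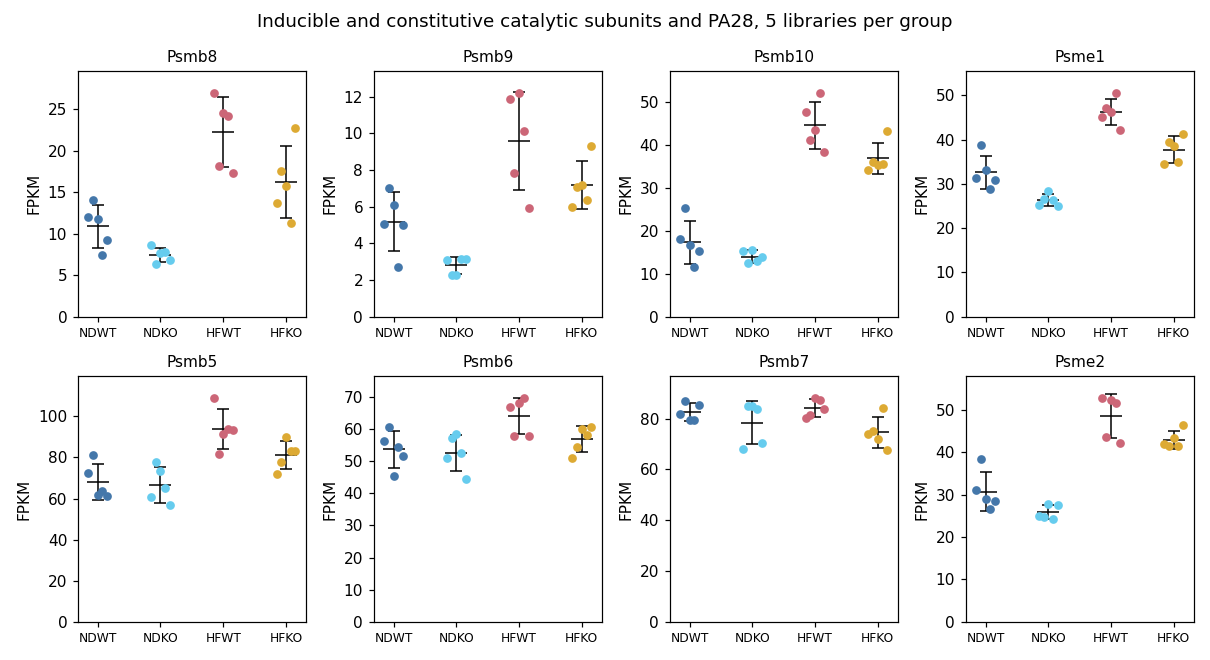
FPKM of the inducible catalytic subunits Psmb8, Psmb9 and Psmb10, their constitutive counterparts Psmb5, Psmb6 and Psmb7 and the PA28 subunits Psme1 and Psme2 in the 4 groups; points are libraries and bars are the mean ± SD (n = 5). Psmb10 and Psme2 of both CDAHFD groups lie above every control diet library of the same genotype, whereas Psmb7 covers much the same range in all groups.

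All 3 inducible catalytic subunits were called higher under CDAHFD in both genotypes, as were 44.1% of all genes tested in WT and 41.9% in TSP-1 null. Their summed level was 33.3 ± 9.01 FPKM in NDWT and 76.3 ± 11.4 in HFWT, and 24.2 ± 2.22 in NDKO and 60.1 ± 9.01 in HFKO (SD, n = 5). In whole liver, more cells of a type and more RNA per cell cannot be told apart. Psmb8 replaces Psmb5, the chymotrypsin-like site (ENSMUSG00000024338.8, chr17:34197721-34201454, + strand, GRCm38). Psmb8 was measured at 11.9, 14.02, 11.7, 7.43 and 9.23 FPKM in the NDWT libraries and at 8.57, 6.29, 7.62, 7.82 and 6.82 in the NDKO libraries. Under CDAHFD the Psmb8 values were 26.9, 18.2, 24.5, 24.2 and 17.3 FPKM in HFWT and 13.7, 17.5, 15.7, 11.2 and 22.7 in HFKO. The lowest CDAHFD library of each genotype was above the highest control diet library of that genotype. The change was 1.04 on the log2 scale in WT (SE 0.18, limma adjusted p = 4.14e-05), or 2.05-fold, and 1.08 in TSP-1 null (SE 0.18, adjusted p = 2.74e-05). With the libraries scaled by the median of ratios it was 0.50 (adjusted p = 0.016) and 0.57 (adjusted p = 0.00734), both under the fold threshold. With quantile normalization it was called in both, at 0.66 (limma adjusted p = 0.00231) and 0.63 (adjusted p = 0.00359).

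Psmb9 replaces Psmb6, the caspase-like site (ENSMUSG00000096727.1, chr17:34181988-34187764, − strand). Psmb9 was measured at 5.05, 7.04, 6.11, 2.71 and 5.01 FPKM in the NDWT libraries and at 3.10, 2.27, 2.28, 3.13 and 3.16 in the NDKO libraries. Under CDAHFD the Psmb9 values were 11.9, 7.85, 12.2, 10.1 and 5.91 FPKM in HFWT and 5.99, 7.09, 7.16, 6.36 and 9.31 in HFKO. In WT the groups overlapped, because HFWT replicate 5 lay below NDWT replicates 2 and 3. In TSP-1 null every CDAHFD library was above every control diet library. The log2 change was 0.89 in WT (SE 0.22, adjusted p = 0.00134) and 1.33 in TSP-1 null (SE 0.22, adjusted p = 2.53e-05). Without HFWT replicate 5 the Psmb9 change in WT was 1.05 (adjusted p = 0.00024). The WT call was lost with median of ratios scaling (0.36, limma adjusted p = 0.145) and with quantile normalization (0.32, adjusted p = 0.168). In TSP-1 null it was called under both, at 0.83 (adjusted p = 0.00197) and 0.71 (adjusted p = 0.00511).

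Psmb10 replaces Psmb7, the trypsin-like site (ENSMUSG00000031897.8, chr8:105935728-105938392, − strand), and had the largest change of the 3 in WT. Psmb10 was measured at 17.9, 25.2, 16.7, 11.4 and 15.2 FPKM in the NDWT libraries and at 15.2, 12.4, 15.6, 12.9 and 13.8 in the NDKO libraries. Under CDAHFD the Psmb10 values were 47.6, 41.03, 43.4, 52.0 and 38.4 FPKM in HFWT and 34.0, 35.9, 35.4, 35.4 and 43.3 in HFKO. All CDAHFD libraries were above all control diet libraries. The log2 change was 1.40 in WT (SE 0.14, adjusted p = 5.72e-08), or 2.63-fold, and 1.39 in TSP-1 null (SE 0.14, adjusted p = 7.14e-08). Psmb10 was called under all 3 scalings, at 0.86 and 0.87 with median of ratios and at 1.15 and 1.07 with quantile normalization. Some libraries stood at the same end of their group for all 3 genes: NDWT replicate 2 was highest and NDWT replicate 4 lowest of their group for each of them, HFWT replicate 5 was lowest in HFWT and HFKO replicate 5 highest in HFKO.

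The constitutive catalytic subunits had smaller log2 changes, and none was called in the deposited values. Psmb5 was measured at 72.3, 81.2, 61.9, 63.6 and 61.3 FPKM in the NDWT libraries and at 60.6, 77.6, 73.6, 65.1 and 56.9 in the NDKO libraries. Under CDAHFD the Psmb5 values were 109, 81.6, 91.5, 94.0 and 93.5 FPKM in HFWT and 72.1, 78.0, 89.8, 83.1 and 82.9 in HFKO. The WT groups did not overlap for Psmb5, while the TSP-1 null groups did, and its log2 change was 0.47 (adjusted p = 0.00028) and 0.29 (adjusted p = 0.0129), below the fold threshold of 0.58. Psmb6 was measured at 56.2, 60.7, 45.5, 54.4 and 51.5 FPKM in the NDWT libraries and at 50.9, 57.0, 58.3, 52.6 and 44.3 in the NDKO libraries. Under CDAHFD the Psmb6 values were 67.0, 57.9, 68.0, 69.5 and 57.9 FPKM in HFWT and 50.9, 54.4, 59.8, 58.1 and 60.5 in HFKO. The Psmb6 groups overlapped in both genotypes, with log2 changes of 0.26 (adjusted p = 0.0123) and 0.11 (adjusted p = 0.251). Psmb7 was measured at 81.9, 86.8, 79.4, 79.3 and 85.5 FPKM in the NDWT libraries and at 67.8, 84.8, 85.1, 83.8 and 70.4 in the NDKO libraries. Under CDAHFD the Psmb7 values were 80.1, 81.4, 87.9, 87.3 and 83.6 FPKM in HFWT and 74.1, 75.1, 71.8, 84.2 and 67.8 in HFKO. The ranges of Psmb7 largely coincided across groups, and its log2 changes were 0.03 (adjusted p = 0.757) and −0.07 (adjusted p = 0.396). With median of ratios scaling the constitutive catalytic values turned to −0.08, −0.28 and −0.52 in WT for Psmb5, Psmb6 and Psmb7. In TSP-1 null they turned to −0.23, −0.41 and −0.59, where Psmb7 was called lower (adjusted p = 3.59e-06), so no direction is given for these genes.

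Because a ratio taken within a library does not depend on the scaling between libraries, each inducible subunit was set against the constitutive one whose place it takes. Psmb10 made up 17.1% ± 3.69 of the summed FPKM of Psmb10 and Psmb7 in NDWT and 34.5% ± 2.65 in HFWT (SD, n = 5). In the TSP-1 null groups the Psmb10 share was 15.2% ± 2.28 on control diet and 33.1% ± 3.53 on CDAHFD. The ratio of Psmb10 to Psmb7 was 2.59-fold higher under CDAHFD in WT and 2.75-fold higher in TSP-1 null, without overlap in either (two-sided exact permutation test, p = 0.00794 each, the smallest that 5 against 5 allows, and 0.0317 adjusted over 12 tests).

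The Psmb8 share of the Psmb8 and Psmb5 sum was 13.7% ± 2.07 in NDWT, 19.1% ± 2.19 in HFWT, 10.1% ± 1.82 in NDKO and 16.5% ± 3.61 in HFKO. The Psmb8 to Psmb5 ratio was 1.48-fold higher under CDAHFD in WT and 1.73-fold higher in TSP-1 null, with overlapping libraries (exact permutation test, p = 0.0159 each, adjusted p = 0.0381). Each of these calls was lost in 8 of the 10 tests that left out 1 library, where fewer arrangements are possible, with log2 differences of 0.46 to 0.65 in WT and 0.67 to 0.92 in TSP-1 null. The WT call held without NDWT replicate 3 or HFWT replicate 5, and the TSP-1 null call without NDKO replicate 1 or HFKO replicate 4. Psmb9 made up 8.82% ± 2.67 of the Psmb9 and Psmb6 sum in NDWT, 12.8% ± 2.45 in HFWT, 5.12% ± 1.27 in NDKO and 11.2% ± 1.34 in HFKO. Its ratio was 2.33-fold higher under CDAHFD in TSP-1 null, with no overlap (exact permutation test, adjusted p = 0.0317). In WT the Psmb9 to Psmb6 ratio was 1.55-fold higher and did not pass (exact permutation test, p = 0.0397, adjusted p = 0.0595), and without HFWT replicate 5 it passed, with a log2 difference of 0.76 (exact permutation test, adjusted p = 0.0317).

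**Figure D2:**
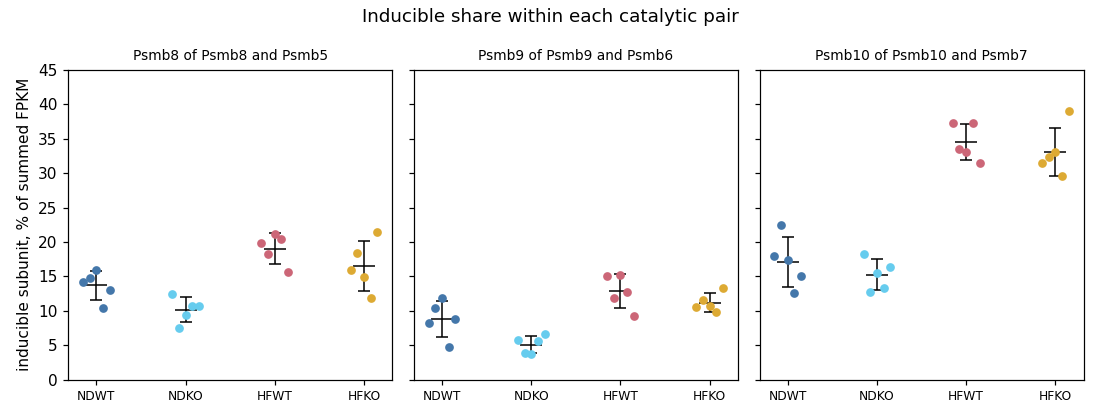
Share of each inducible catalytic subunit in the summed FPKM of itself and its constitutive counterpart, in percent, by group; points are libraries and bars are the mean ± SD (n = 5). The Psmb10 share separates the diets without overlap, and HFWT replicate 5 is the lowest HFWT library for Psmb9.

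Across the 48 genes tested, 9 were called higher and 0 lower under CDAHFD in WT by limma (adjusted p under 0.05 and log2 change above 0.58), where 44.1% of all 14524 genes were called higher and 4.62% lower. At the same adjusted p without the fold threshold, 28 of the 48 were higher and 2 lower, against 64.4% and 8.73% of all genes. In TSP-1 null 9 were called higher and 1 lower, against 41.9% and 4% of all genes. The share of proteasome genes called higher was thus below the background in both genotypes. Those called higher in both were Psmb8, Psmb9, Psmb10, Psme2, Psme2b, Psmd8, Psmd10 and Psmg4, with Psmg2 in WT and Psma8 in TSP-1 null. The median log2 change of the 48 was 0.19 in WT and 0.11 in TSP-1 null, and 38 and 37 of them lay below the all-gene median. The libraries of the 2 diets did not overlap for 17 genes that were higher and 1 that was lower in WT, against 50.5% and 5.7% of all genes, and for 14 and 3 in TSP-1 null, against 52.7% and 5.03%.

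With median of ratios scaling the split turned. In WT 1 gene was then called higher (Psmb10) and 7 lower, against 23.1% and 14.8% of all genes, and in TSP-1 null 2 higher (Psmb9 and Psmb10) and 11 lower, against 22.6% and 13.2%. Constitutive barrel and regulatory particle genes made up 5 of the 7 lower calls in WT and 10 of the 11 in TSP-1 null. Of the 31 in that class, 24 had a log2 change above 0 in WT and 16 in TSP-1 null as deposited, and 1 and 1 after scaling, with medians of 0.12 and 0.03 before and −0.42 and −0.49 after. With quantile normalization 14 and 3 were above 0. Their direction therefore depends on the scaling, but 30 of 31 lay below the all-gene median in each genotype. Psmd8 was the exception and the only one of the 31 called higher.

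**Figure D3:**
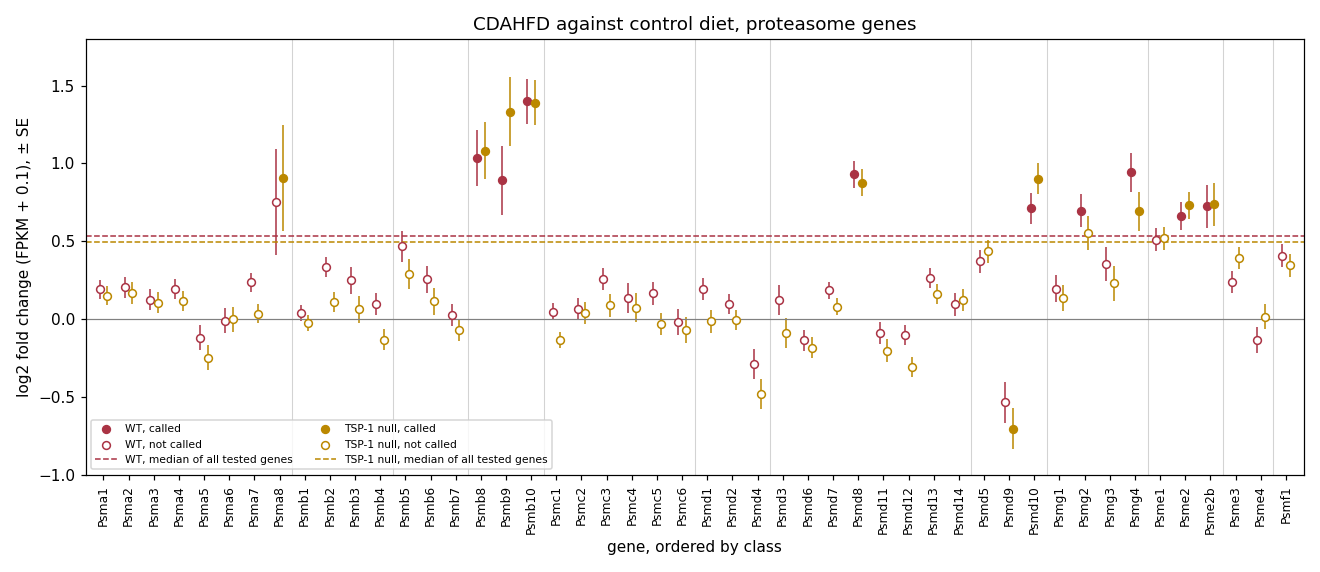
log2 change of each gene under CDAHFD in WT and in TSP-1 null, grouped by class, with the standard error; filled points were called and the dashed lines are the medians of all genes tested. Psmb8, Psmb9, Psmb10, Psmd8, Psmd10, Psmg2, Psmg4, Psme2, Psme2b and Psma8 stand above the dashed lines in both genotypes. Most constitutive subunits lie below them.

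Psmd8 encodes a subunit of the lid of the regulatory particle. Psmd8 was measured at 78.6, 73.2, 68.1, 69.2 and 61.5 FPKM in the NDWT libraries and at 67.3, 74.0, 79.4, 70.0 and 64.1 in the NDKO libraries. Under CDAHFD the Psmd8 values were 139.8, 129, 161, 127 and 114 FPKM in HFWT and 120.4, 140.0, 123, 128 and 139.7 in HFKO. All CDAHFD libraries were above all control diet libraries, including HFWT replicate 5, the lowest of the CDAHFD libraries. The log2 change was 0.93 in WT (SE 0.09, adjusted p = 1.29e-08) and 0.88 in TSP-1 null (adjusted p = 3.36e-08). Quantile normalization left it at 0.94 and 0.86, whereas median of ratios scaling gave 0.39 and 0.36, under the fold threshold. The other 7 lid genes had log2 changes that were not called in either genotype in the deposited values. Psmd12, a lid scaffold, stood at −0.10 in WT and at −0.31 in TSP-1 null (limma adjusted p = 0.000263), where all HFKO libraries were below all NDKO libraries. Psmd6 stood at −0.14 and −0.19. With median of ratios scaling 3 lid genes were called lower in WT and 4 in TSP-1 null. Psmd12 (−0.64 and −0.83) and Psmd6 (−0.68 and −0.70) were among them in both genotypes.

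In the base of the regulatory particle no gene was called in the deposited values. The 6 ATPases ranged from −0.02 to 0.26 in WT and from −0.13 to 0.09 in TSP-1 null. With median of ratios scaling Psmc1 (−0.65) and Psmc6 (−0.59) were called lower in TSP-1 null. Among the ATPases that thread substrates into the barrel, Psmc3 had the highest log2 change in WT (0.26), Psmc6 the lowest (−0.02), and Psmc1 stood at 0.05 in WT and −0.13 in TSP-1 null. The scaffolds Psmd1 and Psmd2 stood at 0.19 and 0.09 in WT and at −0.02 and −0.01 in TSP-1 null. The ubiquitin receptor Psmd4 was measured at 44.0, 39.8, 35.1, 39.6 and 35.9 FPKM in the NDWT libraries and at 37.9, 45.3, 46.7, 42.2 and 30.8 in the NDKO libraries. Under CDAHFD the Psmd4 values were 32.4, 31.1, 31.8, 33.7 and 29.997 FPKM in HFWT and 26.02, 26.001, 30.5, 29.98 and 31.7 in HFKO. In WT all CDAHFD values of Psmd4 were below all control values, and in TSP-1 null the groups overlapped. Its log2 change was −0.29 in WT (adjusted p = 0.012) and −0.48 in TSP-1 null (adjusted p = 0.000191), neither past the fold threshold. It was negative under the other scalings too, at −0.83 and −0.999 with median of ratios and at −0.49 and −0.71 with quantile normalization. Psmd4 was called lower in both genotypes with median of ratios, and in TSP-1 null with quantile normalization.

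The 8 alpha genes, which form the outer rings and the gate of the barrel, ranged from −0.12 to 0.75 in WT, with a median of 0.19, and from −0.25 to 0.91 in TSP-1 null, with a median of 0.11. Among the alpha subunits Psma5 stood at −0.12 and −0.25, and among the beta subunits without an active site Psmb2 stood at 0.33 and 0.11, Psmb4 at 0.10 and −0.13 and Psmb1 at 0.04 and −0.03. Psma8 was called in TSP-1 null at 0.91 (adjusted p = 0.0227) with overlapping groups, and this call was lost without NDKO replicate 2 (0.80, adjusted p = 0.0565) or replicate 4 (0.70, adjusted p = 0.0746).

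The chaperones that assemble the particles moved in different directions. Psmd10 (gankyrin) and Psmd9 both hold ATPases of the base during assembly. Psmd10 was measured at 5.62, 7.42, 6.88, 5.75 and 5.90 FPKM in the NDWT libraries and at 4.35, 5.00, 4.33, 5.41 and 6.03 in the NDKO libraries. Under CDAHFD the Psmd10 values were 10.6, 11.02, 11.5, 9.66 and 9.14 FPKM in HFWT and 9.99, 8.79, 10.1, 9.54 and 8.64 in HFKO. The diets did not overlap for Psmd10 in either genotype, and its log2 change was 0.71 (adjusted p = 2.87e-06) and 0.90 (adjusted p = 1.54e-07). With median of ratios scaling it was 0.18 and 0.39, and with quantile normalization 0.18 and 0.35. Psmd9 was measured at 14.5, 10.6, 13.5, 15.7 and 13.6 FPKM in the NDWT libraries and at 19.9, 15.7, 19.3, 21.5 and 12.3 in the NDKO libraries. Under CDAHFD the Psmd9 values were 9.54, 9.39, 10.7, 8.91 and 7.93 FPKM in HFWT and 9.69, 9.45, 12.0, 11.5 and 10.8 in HFKO. All HFKO libraries were below all NDKO libraries for Psmd9, while in WT the lowest control library, NDWT replicate 2, lay just below HFWT replicate 3. As deposited, Psmd9 was the only one of the 48 genes called lower under CDAHFD. Its log2 change was −0.71 in TSP-1 null (SE 0.13, limma adjusted p = 9.74e-05), and it stood at −0.54 in WT (adjusted p = 0.0013). In WT it passed the fold threshold without NDWT replicate 2 (−0.62) or HFWT replicate 3 (−0.59), and with median of ratios scaling it was −1.07 in WT and −1.22 in TSP-1 null.

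The core particle chaperones Psmg1 to Psmg4 pair alpha subunits as the barrel forms, and all 4 had log2 changes above 0 in both genotypes as deposited, but only 2 of the 4 in each genotype with median of ratios scaling or quantile normalization. Psmg4 was measured at 7.68, 10.2, 8.72, 8.52 and 9.32 FPKM in the NDWT libraries and at 8.83, 9.53, 9.46, 9.94 and 7.68 in the NDKO libraries. Under CDAHFD the Psmg4 values were 20.3, 16.9, 15.6, 21.3 and 12.8 FPKM in HFWT and 11.9, 16.6, 14.6, 13.97 and 17.0 in HFKO. The diets did not overlap for Psmg4 in either genotype. Its log2 change was 0.94 (adjusted p = 1.62e-06) and 0.69 (adjusted p = 6.73e-05). Psmg2 stood at 0.70 in WT (limma adjusted p = 1.08e-05) and was called, and at 0.55 in TSP-1 null (adjusted p = 0.000158), just under the fold threshold. The WT call of Psmg2 was lost with median of ratios scaling (0.16, adjusted p = 0.227) and with quantile normalization (0.17, adjusted p = 0.235). Psmg1 and Psmg3 stood at 0.19 and 0.35 in WT and were not called. Neither call of Psmg4 held with median of ratios scaling, where it was 0.41 and 0.18, or with quantile normalization, where it was 0.52 and 0.26. Pomp, which builds the beta rings and is outside the set, stood at 0.18 and 0.12.

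Of the activators, the interferon-responsive PA28 pair was higher under CDAHFD in the deposited values but close to 0 after median of ratios scaling. The nuclear caps had smaller log2 changes than the pair in the deposited values. Psme1 was measured at 31.3, 38.7, 33.2, 28.8 and 30.9 FPKM in the NDWT libraries and at 25.2, 26.5, 28.4, 26.4 and 25.1 in the NDKO libraries. Under CDAHFD the Psme1 values were 45.1, 47.2, 46.3, 50.5 and 42.2 FPKM in HFWT and 34.4, 39.5, 38.6, 35.0 and 41.4 in HFKO. The diets did not overlap for Psme1 in either genotype, and the log2 change was 0.51 (SE 0.07, adjusted p = 5.24e-06) and 0.52 (adjusted p = 4.57e-06), under the fold threshold. Psme2 was measured at 31.1, 38.5, 29.0, 26.5 and 28.4 FPKM in the NDWT libraries and at 24.9, 24.8, 27.7, 24.2 and 27.5 in the NDKO libraries. Under CDAHFD the Psme2 values were 52.7, 43.5, 52.3, 51.5 and 42.0 FPKM in HFWT and 42.0, 41.4, 43.4, 41.4 and 46.4 in HFKO. Every CDAHFD library was above every control library for Psme2 as well. Its log2 change was 0.66 (SE 0.09, adjusted p = 1.73e-06) and 0.73 (adjusted p = 5.38e-07), and both were called. With median of ratios scaling the PA28 values were −0.03 and −0.001 for Psme1 and 0.12 and 0.21 for Psme2, and with quantile normalization they were 0.33, 0.27, 0.48 and 0.50 in the same order, so neither call of Psme2 held. The summed FPKM of Psme1, Psme2 and Psme2b ranged over 60.01 to 85.1 in NDWT and 91.5 to 112 in HFWT, and over 55.6 to 61.4 in NDKO and 84.2 to 97.3 in HFKO.

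Psme2b, a near copy of Psme2, had log2 changes of 0.72 and 0.74, but 78.4% of its sequences of 31 bases also occur in other genes, mostly Psme2, so the reads of the pair may have been split. Psme3, which forms the nuclear PA28 gamma ring, stood at 0.24 (adjusted p = 0.00509) and 0.39 (adjusted p = 6.11e-05). Psme4, the nuclear cap PA200, stood at −0.13 (adjusted p = 0.156) and 0.02. Psmf1 encodes PI31, which inhibits the barrel in vitro, and stood at 0.41 (adjusted p = 6.44e-05) and 0.34 (adjusted p = 0.000371). Psme2b was called higher in both genotypes, but not with median of ratios scaling or quantile normalization. Psme3, Psme4 and Psmf1 were not called in the deposited values. With median of ratios scaling Psme4 was called lower in WT (−0.67, limma adjusted p = 4.93e-06) and stood at −0.50 in TSP-1 null, not called.

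The genes around the immunoproteasome were taken from lists of known pathway members. Of 11 genes that load peptides onto class I molecules, 4 were called higher in WT and 5 in TSP-1 null, where 44.1% and 41.9% of all genes were. None was called lower as deposited. With median of ratios scaling 3 were higher in each genotype, against 23.1% and 22.6% of all genes. In WT 2 were then lower, Calr (−0.90) and Pdia3 (−0.87), against 14.8% of all genes. The peptide transporter subunit Tap2 changed by 1.23 and 1.23 on the log2 scale, its bridging partner Tapbp by 1.21 and 1.22, the peptide editor Tapbpl by 1.23 and 1.23, and the class I heavy chain H2-D1 by 1.04 and 1.01. Tap1, whose gene runs head to head with Psmb9 and overlaps it by 212 bases on the other strand, stood at 0.23 in WT (adjusted p = 0.24) and rose by 0.60 in TSP-1 null (adjusted p = 0.00468). That Tap1 call was lost without NDKO replicate 3 (0.57), HFKO replicate 2 (0.5798, just under the threshold) or HFKO replicate 5 (0.50). With median of ratios scaling it was lost too (0.09), as were both calls of H2-D1 (0.50 in WT and 0.49 in TSP-1 null). The list medians were 0.33 and 0.52 beside all-gene medians of 0.53 and 0.50.

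Of 11 tested genes of interferon gamma signalling, 6 were called higher in each genotype, where 44.1% and 41.9% of all genes were. With median of ratios scaling 3 were higher in WT and 5 in TSP-1 null, against 23.1% and 22.6% of all genes. In each genotype 1 was then lower, Irf9 (−0.82 and −0.79), against 14.8% and 13.2% of all genes. The receptor chains Ifngr1 (1.83 and 1.70) and Ifngr2 (1.28 and 1.61) rose in WT and TSP-1 null as deposited. So did the kinase Jak2 (0.94 and 1.22), the feedback inhibitor Socs1 (1.04 and 1.40) and the transcription factors Irf8 (2.40 and 2.18) and Irf1 (0.84 and 1.08). With median of ratios scaling Jak2 (0.41), Irf1 (0.31) and Socs1 (0.55) were not called in WT, nor Irf1 (0.57) in TSP-1 null. Nlrc5, the activator of class I genes, stood at 0.55 and 0.48, under the fold threshold. In WT it was called without NDWT replicate 2 (0.62) or HFWT replicate 5 (0.66). Ifng itself was carried by 0 to 9 fragments a library and was not tested.

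Of 29 genes that control ubiquitin or the proteasome, 2 were called higher in each genotype, Ubd and Nfe2l2, and 1 lower in WT, Ddi2, against 44.1% and 41.9% of all genes higher and 4.62% lower in WT. With median of ratios scaling 1 was called higher (Ubd) and 6 lower in WT, and 1 higher (Ubd) and 5 lower in TSP-1 null (Ddi2, Nfe2l1, Nploc4, Ngly1 and AI314180). Of all genes, 23.1% in WT and 22.6% in TSP-1 null were then called higher, and 14.8% and 13.2% lower. Ubd encodes FAT10, a ubiquitin-like tag that sends proteins to the proteasome, and its means were 1.26 ± 0.670 and 44.4 ± 11.5 FPKM in NDWT and HFWT and 0.323 ± 0.269 and 27.6 ± 8.99 in NDKO and HFKO. The Ubd log2 change, 5.17 in WT and 6.27 in TSP-1 null, exceeded that of every proteasome gene. Nfe2l1, the factor that raises proteasome genes when the proteasome is blocked, stood at −0.41 in WT (adjusted p = 0.000493), where all CDAHFD libraries were below all control libraries, and at −0.10 in TSP-1 null. With median of ratios scaling Nfe2l1 was called lower in both genotypes, at −0.95 in WT and −0.62 in TSP-1 null. Ddi2, the protease that activates it, fell by 0.66 in WT (adjusted p = 3.49e-06).

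**Figure D4:**
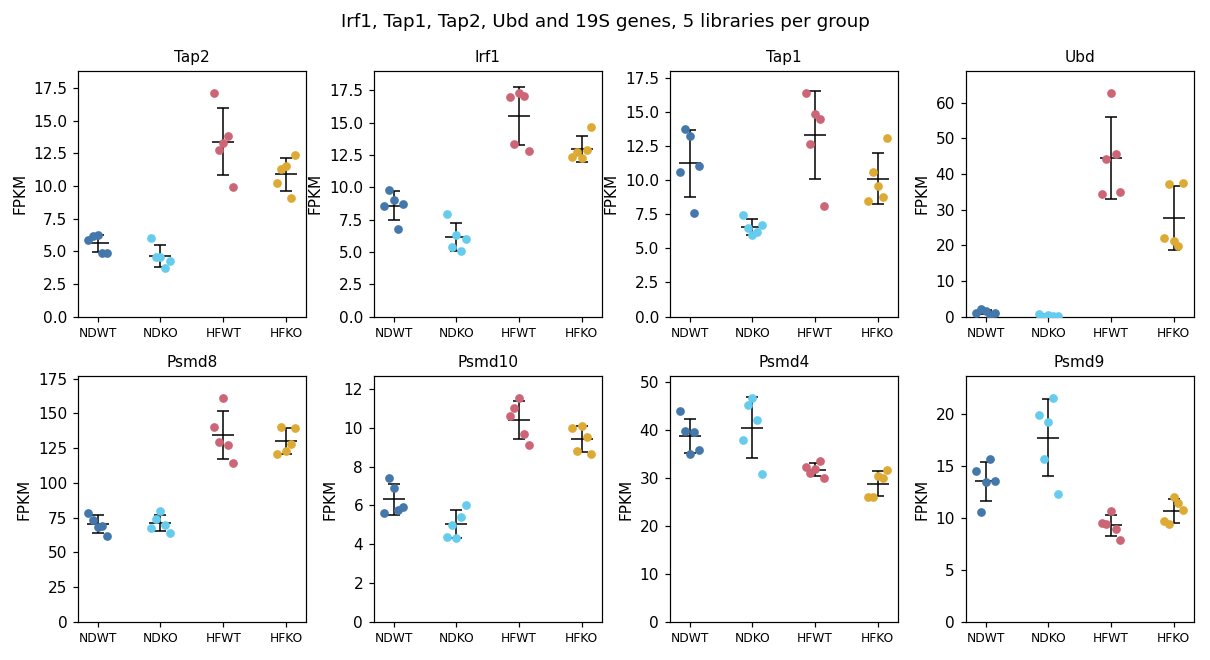
FPKM of Tap2, Irf1, Tap1 and Ubd, and of the regulatory particle genes Psmd8, Psmd10, Psmd4 and Psmd9, by group; points are libraries and bars are the mean ± SD (n = 5). Ubd and Psmd8 separate the diets without overlap, and Psmd9 is lowest in HFWT.

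Markers of several cell types moved with the diet as well. T and NK cell markers summed to 2.09 to 6.94 FPKM in NDWT and 10.1 to 24.2 in HFWT, and to 2.55 to 4.21 and 6.80 to 15.9 in NDKO and HFKO, and 9 of the 10 were called higher in each genotype, where 44.1% and 41.9% of all genes were. Dendritic cell markers summed to 2.04 to 2.87 FPKM in NDWT against 25.3 to 34.1 in HFWT (4 of 5 higher) and macrophage markers to 154 to 211 against 899 to 1216 (4 of 8 higher, 2 lower). All 4 B cell markers were higher too, with sums of 0.814 to 3.04 against 5.25 to 8.04 FPKM. All 4 cholangiocyte markers and all 5 stellate cell markers were called higher in each genotype too. The cholangiocyte sums were 2.05 to 3.11 FPKM in NDWT against 23.4 to 45.6 in HFWT and 2.58 to 3.85 in NDKO against 17.7 to 34.4 in HFKO, and the stellate sums 8.62 to 12.4 against 61.8 to 131 and 10.5 to 11.9 against 58.6 to 112. Of 5 endothelial markers 1 was higher in WT and 2 in TSP-1 null. Hepatocyte markers summed to 39128 to 46507 FPKM in NDWT and 29241 to 41734 in HFWT. As deposited, 2 of these 8 were called lower in WT and 3 in TSP-1 null, against 4.62% and 4% of all genes. With median of ratios scaling 8 were called lower in WT and 6 in TSP-1 null, against 14.8% and 13.2% of all genes. The counts of the other marker lists are as deposited. Neutrophil markers summed to 1.11 to 3.92 FPKM in NDWT against 15.8 to 29.9 in HFWT. Only 2 of these 4 markers were tested, and 2 were called higher in each genotype. Ly6g was at 0 in every NDWT and every HFWT library, and Mpo in every NDWT and every NDKO library. In TSP-1 null the dendritic cell sums were 2.07 to 3.02 against 15.3 to 31.4 FPKM and the macrophage sums 143 to 249 against 562 to 1201. The part of these markers in the rise of Psmb8, Psmb9 and Psmb10 was not tested.

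Between genotypes the differences were smaller. On the control diet 1 of the 48 genes was called, Psmb9, which was lower in the libraries labelled TSP-1 null, against 3.03% of all genes called lower and 4.77% in either direction. The Psmb9 mean was 2.79 ± 0.468 FPKM in NDKO against 5.18 ± 1.62 in NDWT, a log2 difference of −0.82 (SE 0.22, 95% interval −1.29 to −0.36, limma adjusted p = 0.0194). All NDKO values were below 4 of the 5 NDWT values, and NDWT replicate 4, at 2.71 FPKM, lay among them. The call was lost without NDWT replicate 2 (−0.70, adjusted p = 0.0515) or replicate 3 (−0.75, adjusted p = 0.0542) and when only these 2 groups were fitted (adjusted p = 0.0532). Without NDWT replicate 4 the Psmb9 difference was −1.03 (adjusted p = 0.00206), and Psmb8 was then called too, at −0.65 (adjusted p = 0.0216).

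With all libraries Psmb8 stood at −0.52 (adjusted p = 0.0653) and Psmb10 at −0.26 (adjusted p = 0.253) on the control diet. Within libraries, the log2 ratio of Psmb9 to Psmb6 was −0.79 in NDKO relative to NDWT and that of Psmb8 to Psmb5 −0.49, neither of which passed after adjustment (exact permutation test, p = 0.0317 each, adjusted p = 0.0544). Both passed without NDWT replicate 4 (adjusted p = 0.0317). The ratio of Psmb10 to Psmb7 differed by −0.18 (exact permutation test, p = 0.405). Of the 11 peptide-loading genes, 4 were called lower in NDKO, each without overlap, where 3.03% of all genes were called lower and 6.69% lay wholly below: Tap1 (−0.74, adjusted p = 0.00864) and the chaperones of the endoplasmic reticulum Pdia3 (−0.90), Calr (−0.88) and Canx (−0.64), which fold many other proteins as well. The Canx call was lost with median of ratios scaling (−0.56), under the fold threshold. Ubd (−1.82, adjusted p = 0.0104) and Nfe2l2 (−0.69, adjusted p = 8.05e-05) were the 2 control genes called lower, and the Ubd call was lost when only these groups were fitted (adjusted p = 0.0731). T and NK cell markers summed to 2.55 to 4.21 FPKM in NDKO and 2.09 to 6.94 in NDWT, and none of that list was called in this comparison.

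At the adjusted p alone, 5 of the 48 genes passed on the control diet, against 9.6% of all genes lower, and all 5 were lower in NDKO: Psmb9, Psme1, Psmd10, Psmd5 and Psma1. Psme1 was lower by a log2 difference of −0.30 (SE 0.07, adjusted p = 0.0113) and Psmd5, a base chaperone, by −0.27 (adjusted p = 0.0228). For both of these, all NDKO libraries were below all NDWT libraries. They were the only 2 of the 48 without overlap, against 6.69% of all genes below and 2.33% above. Psmd10 stood at −0.33 (adjusted p = 0.0359) with overlapping groups, and Psmd9 at 0.37 (adjusted p = 0.0729). Of the 31 constitutive genes 13 were above 0 in this comparison, and 21 after median of ratios scaling.

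On CDAHFD 0 of the 48 genes were called between genotypes by limma, where 0.496% of all genes were called, with 17 at an unadjusted p under 0.05, all of them lower in HFKO, against 14.2% of all genes. The smallest adjusted p was 0.0639, for Psme1 (−0.29). Of the 48 log2 differences 43 were below 0, as were 70.6% of all genes, and 35 were below the all-gene median of −0.10. For 10 genes every HFKO library was below every HFWT library, against 4.13% of all genes. These 10 were Psma1, Psma4, Psma7, Psmb1, Psmb4, Psmc1, Psmd7, Psmd14, Psmd5 and Psme1, and none lay wholly above, against 0.847% of all genes. Median of ratios scaling moved the all-gene median in this comparison by 0.09, and 1 of the 31 constitutive genes was above 0 before it and 6 after it. The inducible subunits overlapped between genotypes, at −0.47 (adjusted p = 0.189) for Psmb8, −0.38 (adjusted p = 0.391) for Psmb9 and −0.27 (adjusted p = 0.343) for Psmb10. Without HFWT replicate 5 the Psmb8 and Psmb9 differences were −0.56 (adjusted p = 0.152) and −0.54 (adjusted p = 0.204).

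Whether the diet response itself differed between genotypes was tested as an interaction, in which 0 of the 48 genes were called by limma, against 0.647% of all genes. At an unadjusted p under 0.05 there were 5, against 15.1% of all genes, and the smallest adjusted p was 0.232. The interaction was 0.44 for Psmb9 (adjusted p = 0.552), 0.05 for Psmb8 (adjusted p = 0.96) and −0.01 for Psmb10 (adjusted p = 0.993). Its 95% interval ran from −0.21 to 1.10 for Psmb9 and from −0.44 to 0.42 for Psmb10. The diet and genotype comparisons share libraries, since each group enters a diet and a genotype comparison.

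**Figure D5:**
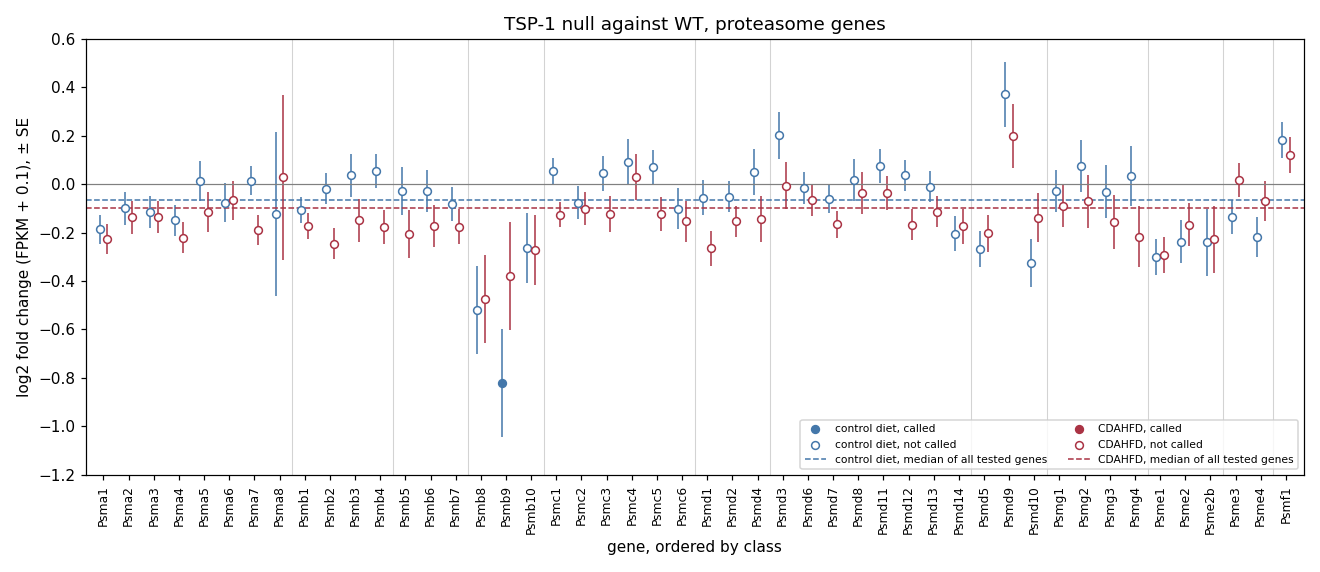
log2 difference of each gene between genotypes, TSP-1 null minus WT as labelled, on the control diet and on CDAHFD, grouped by class, with the standard error; filled points were called and the dashed lines are the medians of all genes tested. Psmb9 on the control diet is the only filled point, and on CDAHFD most genes lie slightly below 0.

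Each library held 349 to 1357 fragments for Psmb8. Reads of some members can also come from other genes. In the annotation used here, 71.7% of the sequences of 31 bases in Psmb5 occur elsewhere, mostly in the copy Gm3375, and 58.7% of those in Psma5, whereas the share was 0 for Psmb9, Psmb10 and Psmg4, 0.378% for Psmb8 and 1.87% for Psmd8. Psmb8 and Psmb10 overlap antisense rows by 2139 and 2665 bases, and Psmc3 and Psmd13 overlap Slc39a13 and Sirt3. The library kit kept strand, but the strand setting of the counting is not given in the sources used here, so reads of such pairs may not have been told apart.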

How the data were processed

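The authors extracted total RNA with Trizol, selected poly(A) RNA, prepared directional libraries and sequenced paired ends on an Illumina HiSeq instrument. Per the labels, STAR 2.5.2 and featureCounts of Subread 1.5.1 were used. The deposited values are FPKM, fragment counts divided by transcript length and library size, for 38924 mouse genes in 20 libraries. GRCh38 is named in the submitters' processing notes, but the rows are mouse genes on GRCm38 coordinates. The series text names the right medial lobe and the methods another right lobe.

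Libraries were grouped by their labels. log2(FPKM + 0.1) of 14524 genes above 0.5 FPKM in at least 5 libraries was fitted over all 20 libraries with limma 3.58.1 (R 4.3.3), with a trended prior and Benjamini-Hochberg adjustment over all genes in each comparison. A gene was called at adjusted p under 0.05 and an absolute log2 change above 0.58. The pseudocount understates the changes of low genes. Two-sided exact permutation tests were used for ratios within libraries (scipy 1.17.1, 252 arrangements), adjusted over 12 tests. Fragment totals were recovered from the steps of the low values. The fits were tested on simulated data. The members and lists were chosen with earlier results of these data known. Genes were named by role and as the highest and lowest of each class, with all that were called in a genotype comparison or lower under CDAHFD, and up to 6 called genes of each partner list. Psma1, Psma4, Psma7, Psmb3, Psmc2, Psmd5, Psmd7, Psmd14, Psmg2, Psmg3, Pdia3, Calr, Canx, Irf9, Nploc4, Ngly1 and AI314180 were named outside this rule, after their values were seen. Alternatives were pseudocounts of 0.01 and 1, other filters, median of ratios scaling, quantile normalization, fits of the compared groups alone, other priors, a replicate block and leaving out each library. The 30 same-numbered pairs of libraries had correlations of −0.133 to 0.0812 of their deviations from group means (median 0.0202), so the numbers were not taken to pair them. All 40 pairs of libraries within groups differed by more than counting error. The values of 1 other gene are not reported here. P-values set the differences between groups against the spread between these libraries.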

Additional observations from a re-analysis of the deposited data

Results flagged for a closer look

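In 13 of 204 groups of 5 libraries examined, 1 library lay far from the other 4 by Dixon's test, a rate near the 1 in 20 that chance gives. Psmb10 is the one among the inducible subunits: HFKO replicate 5 was at 43.3 FPKM and the others at 34.0 to 35.9, and without it the log2 change under CDAHFD in TSP-1 null was 1.33 (limma adjusted p = 4.55e-07). The same library was lowest for Psma3 (20.3 against 22.3 to 22.7 FPKM) and for Psmg2 (7.53 against 9.75 to 10.6). HFKO replicate 4 was highest for Psma2 (63.9 against 55.3 to 57.7) and for Psmg1 (13.5 against 11.5 to 11.9). NDWT replicate 3 was lowest for Psma7 (27.4 against 30.4 to 31.03) and for Psmc3 (38.6 against 44.5 to 45.7), and NDWT replicate 5 lowest for Psme3 (14.9 against 16.4 to 16.9). Psmb1 had its highest value in NDKO replicate 4 (89.2 against 78.9 to 81.6 FPKM) and in HFWT replicate 3 (102 against 86.7 to 89.3), and Psmd5 had its highest in HFWT replicate 3 (10.6 against 8.74 to 9.28). Psmb4 was lowest in NDKO replicate 5 (84.1 against 107 to 113 FPKM). Psmc4 was lowest in HFWT replicate 5 (29.8 against 41.3 to 44.3), the library with the high ribosomal share.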

How the results depend on the processing

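Median of ratios scaling moved the all-gene median by −0.52 in WT and −0.50 in TSP-1 null and turned the calls from 9 higher and 0 lower to 1 and 7 in WT, and from 9 and 1 to 2 and 11 in TSP-1 null. Quantile normalization left 4 called in WT (3 higher and 1 lower) and 7 in TSP-1 null (4 and 3), and under it Psma8 in TSP-1 null reversed to −0.44 (adjusted p = 0.324). Without the fold threshold 30 passed in WT, 25 in TSP-1 null and 5 between genotypes on the control diet. That genotype comparison gave 2 calls with no filter or with a filter of 1 library, settings that also let in Psmc3ip. It gave 0 when its 2 groups were fitted alone. Leaving out 1 library gave 9 to 10 calls in WT, 9 to 11 in TSP-1 null, 0 to 2 between control diet genotypes, and 0 in every case between CDAHFD genotypes and for the interaction.

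Without 1 library the log2 ratio difference of Psmb8 to Psmb5 ranged from 0.46 to 0.65 (diet, WT), 0.67 to 0.92 (diet, TSP-1 null), −0.60 to −0.38 (genotype, control diet) and −0.39 to −0.14 (genotype, CDAHFD). For Psmb9 to Psmb6 these ranges were 0.42 to 0.77, 1.12 to 1.33, −1.01 to −0.66 and −0.33 to −0.13, and for Psmb10 to Psmb7 they were 1.25 to 1.501, 1.37 to 1.54, −0.30 to −0.05 and −0.19 to −0.04. With the replicate number as a block, the 5 paired ratio differences were 0.57 and 0.79 (Psmb8 to Psmb5), 1.22 (Psmb9 to Psmb6, TSP-1 null), and 1.37 and 1.46 (Psmb10 to Psmb7), each with an exact permutation p of 0.0625 (adjusted p = 0.125), the smallest that 5 pairs allow. The block gave 10, 10, 1, 0 and 0 calls in the 2 diet comparisons, the 2 genotype comparisons and the interaction. Of 60 matches of a library to another group, 17 were best with the library of the same number, which is 1 of 5 in that group. The causes of these shifts were not tested. All libraries were of similar depth, which limits only the genes near the floor, Psma8, Psmb11 and Psmc3ip.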
